A study of Mus musculus with 18 samples.

Results

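The core circadian clock loop was followed through 10 genes in mouse liver: the activators Arntl (the gene of BMAL1), Npas2 and Clock, the repressors Per1, Per2, Per3, Cry1 and Cry2, and the nuclear receptors Nr1d1 and Nr1d2 (REV-ERB alpha and beta). The members are all probe sets to which the platform annotation gives 1 of these symbols, which makes 23 probe sets for 10 of the 18193 genes named on the array. Of these, 20 probe sets passed the filter on low values; 1 probe set each of Npas2, Per3 and Nr1d2 did not, and every gene kept at least 1. RNA was measured on 18 Affymetrix mouse arrays, in 6 groups of 3. Livers of wild-type mice (Hmgn1+/+) and of mice labelled as knockouts of Hmgn1 (Hmgn1-/-), a nucleosome-binding protein, were taken without injection at 4 weeks, after saline or after N-nitrosodiethylamine (DEN), an alkylating liver carcinogen. Males received 10 µg of DEN for each g of weight when 4 weeks old, and saline was the control; the sex of the uninjected mice is not stated. The injected groups are labelled 12 weeks, counted from the injection in the series text and from no stated start in the titles. Both genotypes descend from littermates of heterozygous crosses and were then bred apart as homozygous lines, so the gene and the line cannot be told apart. Nothing in the labels says that the arrays of a group are different animals, so p-values measure the spread between these arrays only. The labels do not give the hour of day at which livers were taken.

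In the textbook loop, BMAL1 pairs with CLOCK or NPAS2 on E-box sequences and switches on the Per, Cry and Nr1d genes. PER and CRY proteins then return to the nucleus and block that pair, while REV-ERB proteins repress Arntl, Npas2 and other genes through receptor sites, which closes a further loop. In liver most of these transcripts rise and fall over the day, and so do the clock's output factors such as Dbp.

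Values are array signals (intensity on a linear scale), which allow no comparison of level between genes. Differences are log2 differences of the signal with 16 added, fitted by limma with the standard error (SE) of the fit, and a gene stands for its tested probe set of highest mean. "Rose" and "fell" mean an adjusted p under 0.05 with Benjamini-Hochberg adjustment across the 27022 probe sets tested. The arrays of the 2 saline groups were unlike the rest. The top signal reached 16720 to 21752 on each of these 6 and 46967 to 60173 on the other 12, and hepatocyte markers summed to 55660 to 71630 on them against 126000 to 145100 on the others. The state of these arrays and the saline treatment cannot be told apart. Quantile-normalized values therefore stand beside the called differences of clock genes from saline, and not beside those of the cell type markers. Of 6 listed hepatocyte markers 5 were measured, and Alb, Apoa1 and Ttr were among them with median signals of 36990, 36120 and 34420. In whole liver, fewer cells of a type and less RNA per cell cannot be told apart. Hmgn1 had signals of 6084 to 7948 on the wild-type arrays at 4 weeks and 6503 to 6864 on the knockout arrays; where its probe set lies relative to the deletion is not given in the sources used here, so it does not check the labels.

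Promoter sequences show which members carry the letters that the clock factors are known to bind. RefSeq windows of 250 bases before the gene start (build GRCm38.p6) were on hand for 9 of the 10 members (not for Per2), with 13 windows in all. Both strands were searched, so a motif can appear as its reverse complement. The E-box was CACGTG. Its variant, the E-prime box, was CACGTT. The D-box, which Dbp and its relatives read, was TTATGTAA. The receptor motif, 1 arm of the sites that REV-ERB and ROR proteins read, was AGGTCA. The motifs do not overlap one another here. Printed here are the stretches of the repressors and of Nr1d1 that held an E-box, its variant or a D-box, with the matches in capitals.
Cry1, chr10:85185079-85185163 (-): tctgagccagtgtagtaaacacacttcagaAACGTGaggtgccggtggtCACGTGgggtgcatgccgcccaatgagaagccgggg
Cry2, chr2:92434200-92434265 (-): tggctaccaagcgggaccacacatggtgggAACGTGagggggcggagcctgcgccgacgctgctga
Per1, chr11:69098753-69098847 (+): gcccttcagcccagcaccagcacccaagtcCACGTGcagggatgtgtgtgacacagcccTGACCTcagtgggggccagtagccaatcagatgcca
Per3, chr4:151044786-151044900 (-): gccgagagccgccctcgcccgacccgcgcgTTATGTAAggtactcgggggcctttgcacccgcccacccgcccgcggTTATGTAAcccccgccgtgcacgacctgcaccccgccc
Nr1d1, chr11:98775378-98775435 (-): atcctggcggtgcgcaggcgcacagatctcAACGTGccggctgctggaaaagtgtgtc
An E-box was in 2 of the 13 member windows, that of Cry1 and 1 of Per1. Over all genes 6.02% of 32851 windows held it. The variant was in 3 of the 13, those of Cry1, Cry2 and Nr1d1, against 3.85% of all windows. The D-box was in 1 of the 13, that of Per3, which held it at 2 places. Of the windows of all genes, 6 held it more than once and 0.819% held it at all. The receptor motif was in 3 of the 13, 1 each of Per1, Clock and Nr1d2, against 14% of all windows. No window of Arntl or Npas2 held any of these letters. Sites outside the 250 bases before the start, or spelled otherwise, were not searched for in any gene. Such matches describe the sequence and are not measured binding.

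The activators Arntl and Npas2 were called lower in DEN livers than in uninjected livers of the same genotype, and Nr1d2 was called higher. Cry1, Per1 and Clock were called lower in the knockout DEN livers. Many of these calls were lost in some of the 6 fits without 1 array. In wild type Arntl lost its call in 4 of 6, and Npas2 and Nr1d2 in 0. In the knockout Npas2 and Nr1d2 lost theirs in 5, Per1 in 4, Clock and Cry1 in 3 and Arntl in 1. Between the genotypes, Clock and Cry1 were called higher in knockout than in wild-type liver at 4 weeks. The Cry1 call was lost in 4 of 6 fits without 1 array and in 9 of 14 other settings. No member was called between genotypes after saline or DEN, where 0.0155% and 0.00775% of all genes were called. For DEN against 4 weeks, 1 of 10 members rose and 2 fell in wild type, where 4.71% of 12896 genes were called, 2.27% up and 2.44% down. In the knockout 1 rose and 5 fell, where 8.79% of genes were called, 4.32% up and 4.47% down. For DEN against saline, 1 member fell and 0 rose in wild type (6.99% of genes called, 3.82% up and 3.18% down). In the knockout 4 fell and 0 rose (15.2% called, 7.73% up and 7.51% down). The member median of the log2 difference for DEN against 4 weeks was 0.276 in wild type and -0.501 in the knockout, beside 0.039 and -0.001 over all genes. DEN against 4 weeks joins the injection with the passage of time, and the comparison with saline uses the arrays that stand apart. Both comparisons of a genotype use the same DEN arrays. The 4-week arrays likewise serve both DEN against 4 weeks and the genotype comparison at 4 weeks, so these results are not independent. Knockout at 4 weeks was the highest group for Arntl, Clock, Per1 and Nr1d1. The genotype difference was not called as changed between DEN and 4 weeks for any of the 10 members.

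Other measures also differed between the DEN arrays and the groups they were compared with. The Gapdh 3' to 5' ratio, a sign of RNA quality, was 0.907 to 0.937 on the knockout DEN arrays, below every other array, against 1.35 to 1.70 at 4 weeks and 1.21 to 1.41 after saline. In wild type it was 1.02 to 1.13 with DEN, against 1.13 to 2.19 at 4 weeks and 1.19 to 1.33 after saline. Of the 6 macrophage markers tested, 5 rose in the knockout from 4 weeks to DEN (median 0.65 on the log2 scale) and 3 from saline to DEN (median 0.36), and in wild type 0 did in either comparison. Their summed signal in the knockout was 2373 to 2658 at 4 weeks, 2689 to 3063 after saline and 2975 to 4364 with DEN. Of the 5 endothelial markers 1 rose in the knockout from saline to DEN, and so did 1 of the 5 stellate and fibroblast markers. Of the 5 hepatocyte markers, 4 rose from saline to DEN in the knockout (median 0.98) and 5 in wild type (median 1.01). These calls rest on the saline arrays that stand apart. In wild type the markers summed to 126000 to 140200 at 4 weeks, 55660 to 71630 after saline and 127300 to 142600 with DEN. In the knockout they summed to 132900 to 145100, 63440 to 64470 and 131400 to 140100. From 4 weeks to DEN 0 of the 5 hepatocyte markers rose in either genotype, while 1 fell in the knockout and 0 in wild type. In that comparison 1 of the 5 endothelial markers rose in wild type. In the knockout 1 of the 5 stellate and fibroblast markers rose and 1 of 2 cholangiocyte markers fell. The part of RNA quality and of these markers in the members' differences was not tested.

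**Figure D1:**
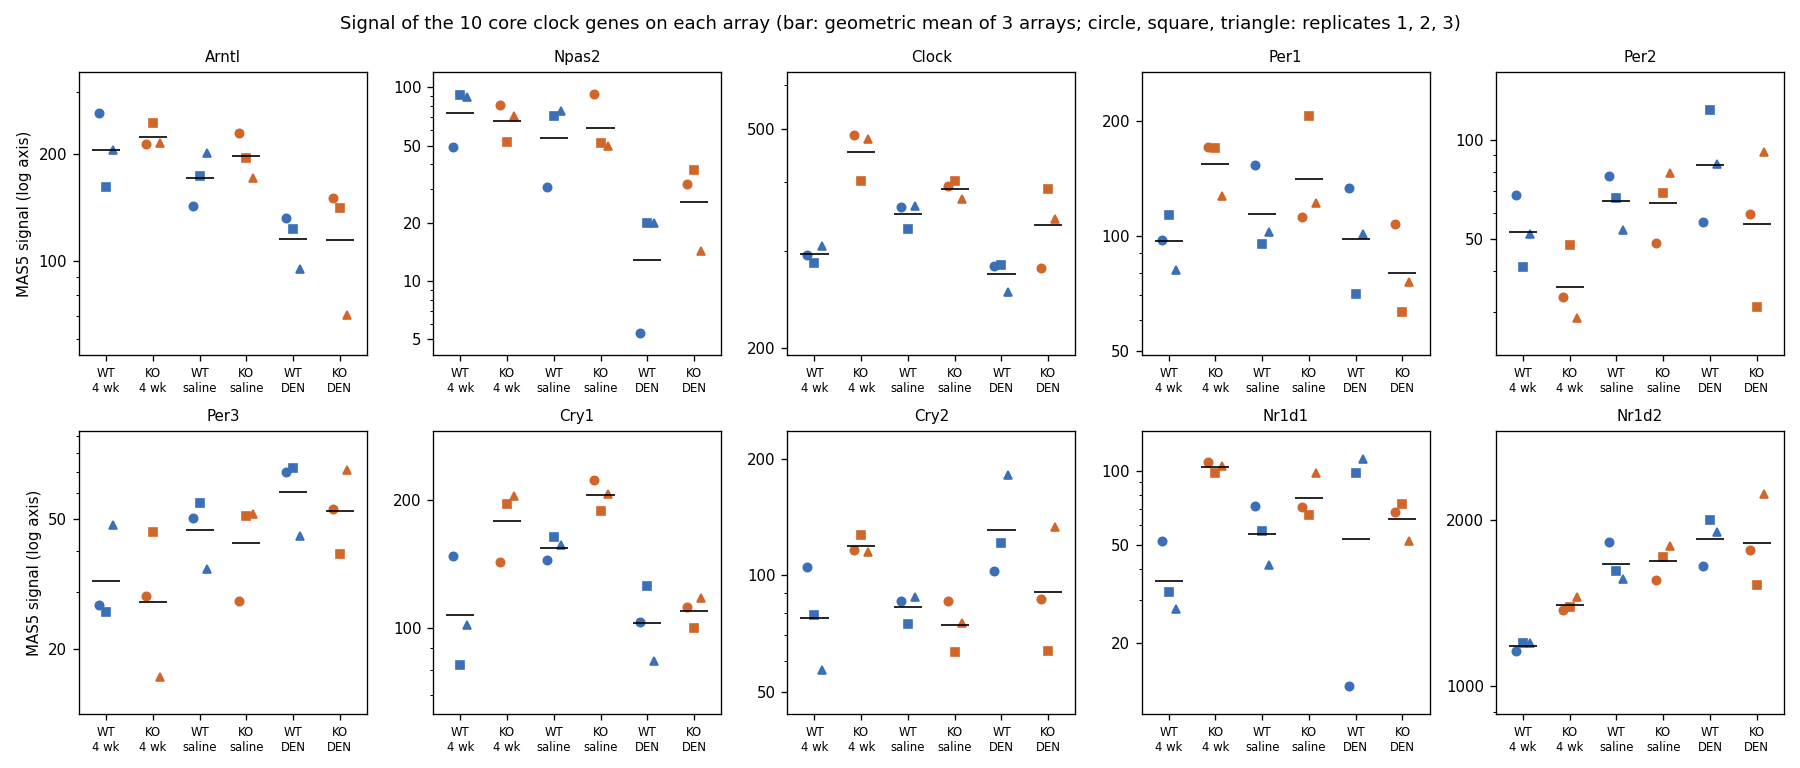
Signal of the 10 genes on each of the 18 arrays (log axis), by group, with 1 symbol per replicate and a bar at the geometric mean of 3 arrays; blue is wild type and orange is knockout. Arntl and Npas2 lie lowest in the DEN groups, Nr1d2 lies lowest in wild type at 4 weeks, and Nr1d1 has 1 wild-type DEN array at 13.4, far below the other two.

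Arntl encodes BMAL1, the partner that the loop cannot do without. Its signal (probe set 1425099_a_at) was 262, 161 and 205 on the wild-type arrays at 4 weeks and 213, 244 and 215 on the knockout arrays. After saline it was 143, 173 and 202 in wild type and 229.7, 195 and 172 in the knockout. After DEN it was 132, 123 and 94.7 in wild type and 151, 141 and 70.3 in the knockout. All 6 DEN arrays but knockout replicate 1 lay below every saline array, and all 6 lay below every 4-week array. Arntl fell from 4 weeks to DEN in wild type by 0.75 (SE 0.21, n = 3 arrays per group, adjusted p 0.0408) and in the knockout by 0.87 (SE 0.21, adjusted p 0.0132). Against saline it fell by 0.70 in the knockout (SE 0.21, adjusted p 0.0248), which became -0.602 with adjusted p 0.0684 after quantile normalization. The wild-type difference from saline was -0.51 (adjusted p 0.164). The wild-type fall was lost without 4-week replicate 1 or 3 or DEN replicate 2 or 3, at -0.588 to -0.791 and an adjusted p of 0.137 at most. It was also lost in 5 of 14 other settings, among them only the compared groups, at an adjusted p of 0.0514 to 0.094. The knockout fall from 4 weeks was lost without DEN replicate 3 (-0.566, adjusted p 0.062). That from saline was lost without DEN replicate 3 or saline replicate 1 or 2, at -0.399 to -0.711, and in 5 of 13 other settings. From low to high the groups ran knockout DEN, wild-type DEN, wild-type saline, knockout saline, wild-type 4 weeks and knockout 4 weeks. Of the 5 steps between neighbours only that from wild-type DEN to wild-type saline, 0.506, exceeded the pooled SD within groups, 0.298. The other Arntl probe set was dim, at a median signal of 38.5, and had no call.

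Npas2, which can take the place of CLOCK beside BMAL1, showed the largest fitted fall of any member's probe set of highest mean, in wild type after DEN. Signals of its probe set 1421037_at were 49.1, 91.8 and 89.6 in wild type at 4 weeks and 81.3, 51.9 and 71.0 in the knockout. Saline livers had 30.7, 71.1 and 75.5 in wild type and 91.9, 51.7 and 50.02 in the knockout. The DEN livers had 5.36, 19.9 and 19.9 in wild type and 31.5, 37.4 and 14.2 in the knockout. No wild-type DEN array reached any other wild-type array, and the knockout DEN arrays likewise lay below all other knockout arrays. Npas2 fell from 4 weeks to DEN by 1.58 in wild type (SE 0.30, adjusted p 0.00478), to 0.334 of its level with 16 added. It also fell against saline there, by 1.25 (SE 0.30, adjusted p 0.0112), and at -1.259 after quantile normalization (adjusted p 0.019). In the knockout it fell by 0.97 from 4 weeks (SE 0.30, adjusted p 0.0464) and by 0.88 from saline (SE 0.30, adjusted p 0.0478). The wild-type fall from 4 weeks kept its call in 6 of 6 fits that left out 1 array, at -1.821 to -1.334. The wild-type fall from saline was lost without DEN replicate 1 or saline replicate 2 or 3, at an adjusted p of 0.0748 at most. The knockout falls were near the threshold. That from 4 weeks was lost in 5 of 6 such fits, all but the one without 4-week replicate 2, at -1.135 to -0.724. That from saline was also lost in 5 of 6, all but the one without DEN replicate 2, at -1.009 to -0.639, and with quantile normalization (-0.752, adjusted p 0.106). Other settings ended these calls in 9 of 14 cases against 4 weeks and in 9 of 13 against saline. At these low signals the number added sets the size of the difference.

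Clock, the usual partner of BMAL1 and a histone acetyltransferase, had the smallest adjusted p of the members between genotypes. Signals (1418659_at) were 295, 286 and 307 in wild type at 4 weeks against 486, 403 and 478 in the knockout, so the groups did not overlap. Saline livers had 360.4, 329 and 362 in wild type and 394, 402 and 372 in the knockout. DEN livers had 282, 283 and 253 in wild type and 280.0, 389 and 343 in the knockout. Clock was higher in the knockout at 4 weeks by 0.59 (SE 0.11, adjusted p 0.00518), that is 1.51-fold. The call held in 6 of 6 fits without 1 array, at 0.544 to 0.675, and was lost when the 4-week array of highest Gapdh ratio was left out of each genotype (0.521, adjusted p 0.0786). Those ratios were 2.19 on wild-type replicate 2 and 1.70 on knockout replicate 1. With saline the difference was 0.15 (adjusted p 0.993) and with DEN 0.28 (adjusted p 0.465). From 4 weeks to DEN, Clock fell in the knockout by 0.42 (SE 0.11, adjusted p 0.0219) and was -0.11 in wild type (adjusted p 0.621). The knockout fall was lost without 4-week replicate 1 or 3 or DEN replicate 1, at -0.3 to -0.387, and in 4 of 14 other settings. Clock had 4 tested probe sets, and at 4 weeks the other 3 had no genotype call; 1435775_at differed by 0.27 (adjusted p 0.267). In the knockout after DEN, 1435775_at also fell, by 0.38 against 4 weeks and by 0.41 against saline (adjusted p 0.0426 and 0.0191), and the latter was -0.346 after quantile normalization (adjusted p 0.0581). The dim 1439314_at fell by 1.40 against saline (adjusted p 0.00768; -1.302 with adjusted p 0.0163 after quantile normalization), from signals of 74.0, 67.8 and 85.0 to 19.1, 23.3 and 14.1, while the probe set of highest mean was -0.21 there (adjusted p 0.225).

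The Per genes encode the repressors that carry CRY back to the nucleus, and they did not move together. Per1 (1449851_at) had signals of 97.5, 113 and 81.5 in wild type and 171, 169.8 and 127 in the knockout at 4 weeks, with no overlap. After saline it had 153, 95.2 and 102 in wild type and 112, 206 and 122 in the knockout. After DEN it had 133, 70.5 and 101 in wild type and 107, 63.1 and 75.8 in the knockout. The genotype difference of Per1 at 4 weeks was 0.60 (SE 0.23, adjusted p 0.199). Per1 fell from 4 weeks to DEN in the knockout by 0.82 (SE 0.23, adjusted p 0.0288) and from saline by 0.71 (SE 0.23, adjusted p 0.0393), and in wild type it was 0.03 and -0.19 (adjusted p 0.965 and 0.730). The knockout fall from 4 weeks was lost without 4-week replicate 1 or 2 or DEN replicate 2 or 3, at -0.681 to -0.788. That from saline was lost without DEN replicate 2 or 3 or saline replicate 2 or 3, at -0.461 to -0.805, and with quantile normalization (-0.599, adjusted p 0.105). Other settings ended these calls in 4 of 14 cases against 4 weeks and in 7 of 13 against saline. Of the 5 steps between neighbouring groups of Per1, 0 exceeded the SD within groups.

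Per2 (1417602_at) had no call in any comparison. Its signals at 4 weeks were 68.0, 41.1 and 51.8 in wild type and 33.3, 47.9 and 28.7 in the knockout. Saline livers had 77.9, 67.0 and 53.3 in wild type and 48.6, 69.3 and 79.5 in the knockout, and DEN livers had 56.6, 124 and 84.5 and 59.8, 31.1 and 92.1. DEN arrays of 1 group thus spread from 31.1 to 92.1 in the knockout. From 4 weeks to DEN it was 0.55 in wild type (95% interval -0.01 to 1.11, adjusted p 0.268) and 0.48 in the knockout (-0.07 to 1.04, adjusted p 0.291). The other tested Per2 probe sets were dim, at median signals of 22.6 (1417603_at) and 20.4 (1457350_at). For that comparison they read 0.603 and 0.296 in wild type after quantile normalization. In the knockout they read -0.062 and 0.446, so the sign there differed between probe sets.

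Per3, a period gene whose loss leaves the loop running, was measured by 5 tested probe sets that disagreed on the call. The one of highest mean, 1421087_at, had signals of 27.3, 26.0 and 48.1 in wild type and 29.1, 45.8 and 16.5 in the knockout at 4 weeks. After saline it had 50.5, 56.1 and 35.1 in wild type and 28.2, 51.1 and 52.1 in the knockout. After DEN it had 69.7, 71.6 and 44.5 in wild type and 53.9, 39.1 and 70.8 in the knockout, and 1 array of each genotype overlapped the 4-week range. From 4 weeks to DEN it was 0.65 in wild type and 0.63 in the knockout (SE 0.26 for each, adjusted p 0.161 and 0.140). Probe set 1441445_at spread less, with an SD within groups of 0.134 against 0.346. Its signals in wild type were 30.2, 24.1 and 22.3 at 4 weeks, 56.8, 46.8 and 42.8 after saline and 54.4, 58.6 and 48.6 after DEN. Both injected wild-type groups lay above the uninjected one without overlap, and the probe set rose by 0.75 for DEN (SE 0.17, adjusted p 0.0157) and by 0.64 for saline (SE 0.17, adjusted p 0.0204), with the same 4-week arrays in both. After quantile normalization the saline rise was 0.579 (adjusted p 0.0429). In the knockout its DEN difference from 4 weeks was 0.35 (adjusted p 0.225), from 28.9, 38.1 and 40.3 to 42.7, 55.7 and 50.9. Per3 is the member whose promoter stretch carries the D-box at 2 places. Whether these sites bear on its level was not tested.

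**Figure D2:**
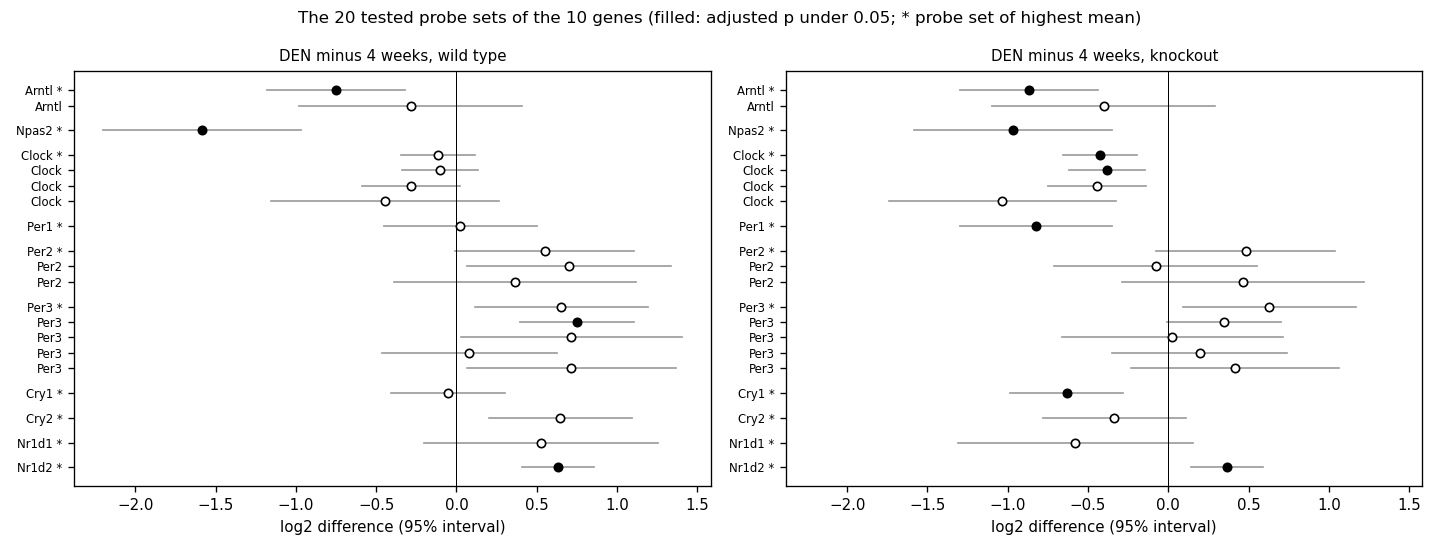
Log2 difference between DEN and uninjected 4-week livers for each of the 20 tested probe sets, with its 95% interval (x axis), in wild type and in the knockout; filled points have an adjusted p under 0.05 and the star marks the probe set of highest mean. Wild type shows 4 filled points, with Arntl at -0.75, Npas2 at -1.58, Nr1d2 at 0.63 and 1 of the 5 Per3 probe sets at 0.75.

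Cry1 and Cry2 encode the cryptochromes, the stronger repressors of the BMAL1 pair. Cry1 (1433733_a_at) had signals of 147, 82.0 and 102 in wild type and 143, 195 and 204 in the knockout at 4 weeks. Saline livers had 144, 163 and 157 in wild type and 222, 188 and 206 in the knockout, where every knockout array was the higher. DEN livers had 104, 125 and 84.2 in wild type and 112, 100.04 and 118 in the knockout. Cry1 was higher in the knockout at 4 weeks by 0.66 (SE 0.17, adjusted p 0.0446), although wild-type replicate 1 lay above knockout replicate 1. That call was lost without wild-type replicate 2 or 3 or knockout replicate 2 or 3, at 0.488 to 0.623 and an adjusted p of 0.177 at most. It was also lost in 9 of 14 other settings, quantile normalization among them, at 0.617 to 0.656 and an adjusted p of 0.0574 to 0.139. With saline the genotype difference was 0.37 (adjusted p 0.942) and with DEN 0.08 (adjusted p 0.936). Cry1 fell from saline to DEN in the knockout by 0.81 (SE 0.17, adjusted p 0.00215). This fall held in 6 of 6 fits without 1 array (-0.872 to -0.757) and with quantile normalization (-0.726, adjusted p 0.00906). It also fell from 4 weeks to DEN in the knockout, by 0.63 (SE 0.17, adjusted p 0.0245), which was lost without 4-week replicate 2 or 3 or DEN replicate 2, at -0.545 to -0.575, and in 2 of 14 other settings. In wild type, DEN against saline was -0.52 (adjusted p 0.0748) and DEN against 4 weeks -0.05 (adjusted p 0.900).

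Cry2 (1426383_at) had no call in the comparisons as fitted. At 4 weeks it had signals of 105, 78.8 and 56.9 in wild type and 116, 127 and 115 in the knockout, which did not overlap. After saline it had 85.6, 75.0 and 88.0 in wild type and 85.7, 63.3 and 75.4 in the knockout. After DEN the wild-type arrays read 103, 121 and 181 and the knockout arrays 87.0, 63.9 and 133. The genotype difference was 0.52 at 4 weeks and -0.46 with DEN (SE 0.21 for each, adjusted p 0.240 and 0.543), of opposite sign. The difference of these differences was -0.98 (SE 0.30, adjusted p 0.139), and -1.223 (adjusted p 0.0416) without knockout DEN replicate 3. In wild type, DEN against 4 weeks was 0.65 (adjusted p 0.0897), and 0.828 (adjusted p 0.0382) without 4-week replicate 1.

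Nr1d1 encodes REV-ERB alpha, the repressor of Arntl, and 1 array decided several of its values. Signals (1426464_at) were 51.7, 32.3 and 27.5 in wild type and 108, 97.8 and 105 in the knockout at 4 weeks. After saline they were 72.1, 56.9 and 41.3 in wild type and 71.5, 66.1 and 97.6 in the knockout. After DEN they were 13.4, 97.9 and 111 in wild type and 68.1, 73.5 and 51.9 in the knockout. The knockout arrays at 4 weeks all lay above the wild-type arrays, by 1.19 (SE 0.35) or 2.29-fold, with an adjusted p of 0.0832. That difference passed with array quality weights (adjusted p 0.0233) and with only the compared groups in the fit (adjusted p 0.00733). The SE rests on a spread shared by all groups, with a pooled SD of 0.533. Within groups the SD was 1.178 for wild-type DEN. At 4 weeks it was 0.334 in wild type and 0.063 in the knockout. Wild-type DEN replicate 1, at 13.4, was the lowest of the 18 arrays. With it, DEN against 4 weeks in wild type was 0.53 (adjusted p 0.437), and without it 1.205 (adjusted p 0.00292). The difference of the genotype differences, DEN less 4 weeks, was -1.11 (adjusted p 0.319) with it and -1.784 (adjusted p 0.00675) without it. DEN against saline in wild type was 0.07 (adjusted p 0.950) with it and 0.749 (adjusted p 0.0403) without it. On that same array Npas2, at 5.36, was also at its lowest of the 18, while Arntl, at 132, was the highest of the wild-type DEN arrays.

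Nr1d2 encodes REV-ERB beta, and its probe set 1416958_at spread little within groups, with a pooled SD of 0.142. Its signals at 4 weeks were 1158, 1196 and 1196 in wild type and 1375, 1393 and 1453 in the knockout, without overlap. After saline they were 1827, 1618 and 1563 in wild type and 1559, 1714 and 1797 in the knockout. After DEN they were 1654, 1996 and 1901 in wild type and 1767, 1524 and 2226 in the knockout. Every injected array lay above every uninjected array. Nr1d2 rose from 4 weeks to DEN in wild type by 0.63 (SE 0.11, adjusted p 0.00225), that is 1.55-fold, and held in 6 of 6 fits without 1 array (0.577 to 0.712). It rose from 4 weeks to saline there by 0.49 (SE 0.11, adjusted p 0.00563), at 0.51 with quantile normalization (adjusted p 0.00891), and held in 6 of 6 such fits. These rises share the wild-type 4-week arrays. In the knockout it rose by 0.37 from 4 weeks to DEN (SE 0.11, adjusted p 0.0403). This was lost in 5 of 6 fits, all but the one without DEN replicate 2, at 0.22 to 0.389. It was also lost in 8 of 14 other settings, with quantile normalization, cyclic loess and centred medians among them, at an adjusted p of 0.0566 to 0.115. From 4 weeks to saline it was 0.26 in the knockout (adjusted p 0.142). DEN and saline livers differed by 0.15 in wild type (95% interval -0.08 to 0.37) and by 0.11 in the knockout (-0.12 to 0.33), with no call. The genotype difference at 4 weeks was 0.25 (adjusted p 0.279).

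**Figure D3:**
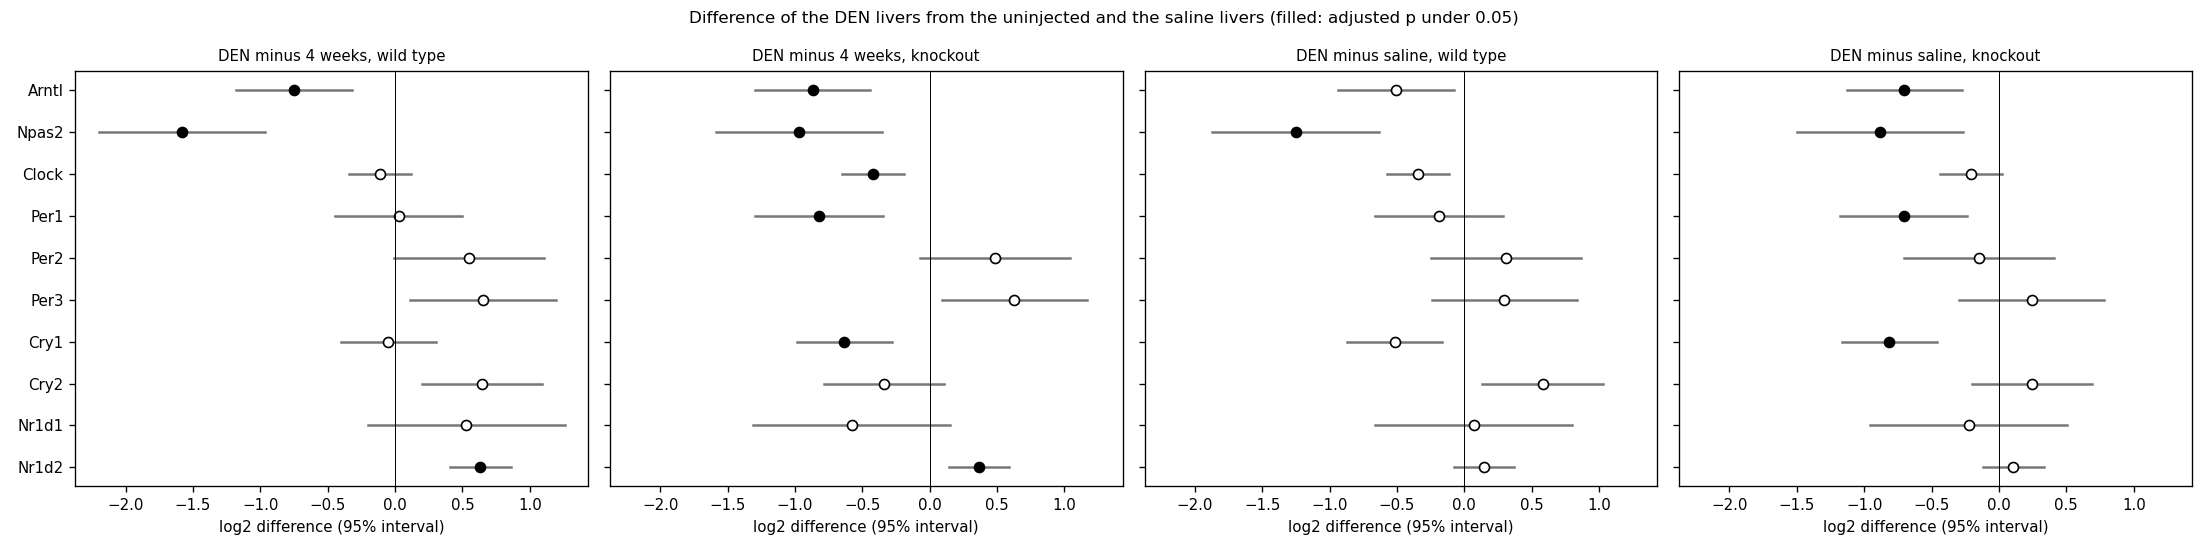
Log2 difference of DEN livers from uninjected and from saline livers for the 10 genes, with 95% intervals (x axis), by genotype; filled points have an adjusted p under 0.05. Arntl and Npas2 lie left of 0 in all 4 panels, and Nr1d2 is filled in the panels against 4 weeks only, at 0.63 in wild type and 0.37 in the knockout.

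Between the genotypes, 2 of 10 members rose in the knockout at 4 weeks and 0 fell, where 3.08% of genes were called, 1.78% up and 1.29% down. The members' median difference was 0.383 against 0.021 over all genes, 7 of 10 lay above 0, and 6 of 10 had an unadjusted p under 0.05, as did 2255 of 12896 genes. Per2, at -0.40, had the lowest value of the members (adjusted p 0.518). Its dimmer probe sets disagreed in sign, with 1417603_at at 0.47 and 1457350_at at -0.444 after quantile normalization. With saline limma called 0 members (1 at an unadjusted p under 0.05, beside 752 of 12896 genes) where 0.0155% of genes were called. The member median was 0.136. With DEN limma called 0 members (2 at an unadjusted p under 0.05, beside 1153 of 12896 genes) where 0.00775% of genes were called. The member median was -0.013. Macrophage markers moved with the genotype at 4 weeks: their summed signal was 2373 to 2658 on the knockout arrays and 3538 to 3686 on the wild-type arrays, with 2 of 6 lower. Stellate and fibroblast markers summed to 2393 to 2535 against 3395 to 3756, with 1 of 5 lower. Their part in the clock genes' differences was not tested.

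**Figure D4:**
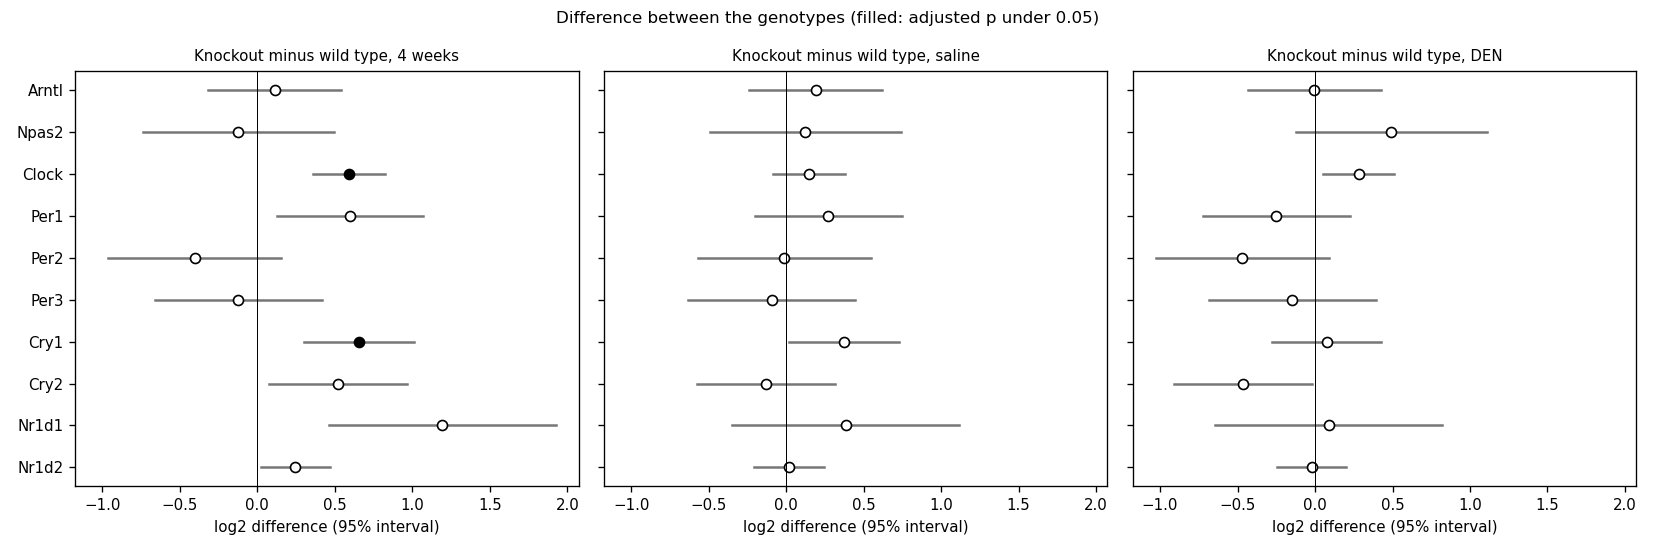
Log2 difference of knockout from wild-type livers for the 10 genes, with 95% intervals (x axis), at 4 weeks, with saline and with DEN; filled points have an adjusted p under 0.05. At 4 weeks Clock (0.59) and Cry1 (0.66) are filled and Nr1d1 (1.19) is the farthest to the right but open; with saline and with DEN every point is open.

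Whether the genotype difference itself changed between conditions was tested as a difference of differences. Between DEN and 4 weeks, limma called 0 of 10 members (4 at an unadjusted p under 0.05: Cry1, Cry2, Per1 and Nr1d1), where 1.08% of genes were called. An unadjusted p under 0.05 was reached there by 2056 of 12896 genes. All 4 members were negative, from -0.58 for Cry1 to -1.11 for Nr1d1. Between DEN and saline limma called 0 members (0 at an unadjusted p under 0.05, beside 1048 of 12896 genes) and 0% of genes. Between saline and 4 weeks limma called 0 members (2 at an unadjusted p under 0.05, Clock at -0.44 and Cry2 at -0.65) and 0.00775% of genes. In that comparison 587 of 12896 genes had an unadjusted p under 0.05. So the Clock and Cry1 differences at 4 weeks are not shown to differ from those after injection.

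The uninjected and the saline livers were compared within each genotype. In wild type 1 of 10 members rose, Nr1d2, and 0 fell, where 9.79% of genes were called, 4.87% up and 4.92% down. In the knockout limma called 0 members (3 at an unadjusted p under 0.05, beside 3446 of 12896 genes) where 11.7% of genes were called. Those 3 were Cry2 at -0.58, Per2 at 0.63 and Nr1d2 at 0.26, with adjusted p of 0.0932, 0.15 and 0.142. After quantile normalization they were -0.668, 0.507 and 0.299.

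Arrays of 1 group differ among themselves, and whether the other members follow Arntl from array to array was asked after removing group means. Nr1d2 ran opposite to Arntl over the 18 arrays, with Pearson's r of -0.775 (exact permutation within groups, p 0.00752, adjusted p 0.0677 over 9 members) and Spearman's rho of -0.717 (exact p 0.00712, adjusted p 0.064). Without the 2 arrays farthest from the median of Arntl, r was -0.675. The r was -0.803 (adjusted p 0.0264) with quantile normalization, -0.57 (adjusted p 0.721) with array medians centred and -0.729 (adjusted p 0.884) without the saline arrays. The highest positive value was that of Cry1, with r 0.403 (exact permutation p 0.13, adjusted p 0.583) and rho 0.43 (exact p 0.113), and 0.633 without 2 arrays. With correction 0 of 9 members passed (1 at an unadjusted p under 0.05). Knockout DEN replicate 3 shows the pattern, with the lowest Arntl signal of all arrays, 70.3, and the highest Nr1d2 signal, 2226.

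Around the core, 16 further clock genes were tested, and Timeless lay below the filter. Dbp, a D-box activator that the BMAL1 pair drives, moved most. Its signals in wild type were 46.9, 63.6 and 65.4 at 4 weeks, 509, 559 and 403 after saline and 610.2, 1356 and 1489 after DEN. In the knockout they were 187, 189 and 179 at 4 weeks, 187, 386 and 519.9 after saline and 527, 219 and 1351 after DEN. The wild-type groups were separate from one another, while the knockout saline arrays reached down to the 4-week level. Dbp rose from 4 weeks to DEN in wild type by 3.88 (SE 0.42, adjusted p 4.83e-05), or 14.7-fold, and in the knockout by 1.48 (SE 0.42, adjusted p 0.0336). Over the 6 fits without 1 array the knockout rise ranged from 0.83 to 2.1 and was lost in 5. From 4 weeks to saline it rose in wild type by 2.76 (adjusted p 0.000145; 2.685 with quantile normalization) and was 0.81 in the knockout (adjusted p 0.256). The knockout at 4 weeks stood above wild type by 1.44 (adjusted p 0.0811), and the difference of the genotype differences, DEN less 4 weeks, was -2.40 (SE 0.60, adjusted p 0.0595).

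In wild type from 4 weeks to DEN, 4 of the 16 rose and 3 fell, where 2.27% of all genes rose and 2.44% fell. Tef, a relative of Dbp, rose by 1.04, Usp2, a deubiquitinase, by 1.29 and Bhlhe40 (DEC1), a repressor at E-boxes, by 0.96 (adjusted p 0.001, 0.0118 and 0.00387). Nfil3, the repressor that competes with Dbp at the D-box, fell by 1.05 (SE 0.15, adjusted p 0.000476), from 623, 566 and 578 to 404, 231 and 222. Rora, the receptor that opposes REV-ERB at Arntl, fell by 0.51 (adjusted p 0.0128). The third was Csnk1d, a kinase of the PER proteins, at -0.47 (adjusted p 0.0366), named outside the rule for named genes after its values were seen. In the knockout 3 rose and 3 fell, where 4.32% of all genes rose and 4.47% fell. Beside Dbp, Wee1, a cell-cycle kinase, rose by 0.68 and Nampt, an enzyme of NAD synthesis, by 0.48. Nfil3 fell by 0.62, Rora by 0.62 and Csnk1d by 0.49, with adjusted p of 0.0145, 0.00262 and 0.0203. The median over the 16 was 0.365 in wild type and 0.066 in the knockout. Wild-type calls of Dbp, Nfil3, Tef and Bhlhe40 held in 6 of 6 fits without 1 array, as did Rora in the knockout. Those of Usp2, Rora and Csnk1d in wild type were lost in 1, 2 and 4 of 6. Those of Wee1, Nampt and Csnk1d in the knockout were lost in 4, 5 and 3 of 6, and Nfil3 in the knockout in 2 of 6.

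**Figure D5:**
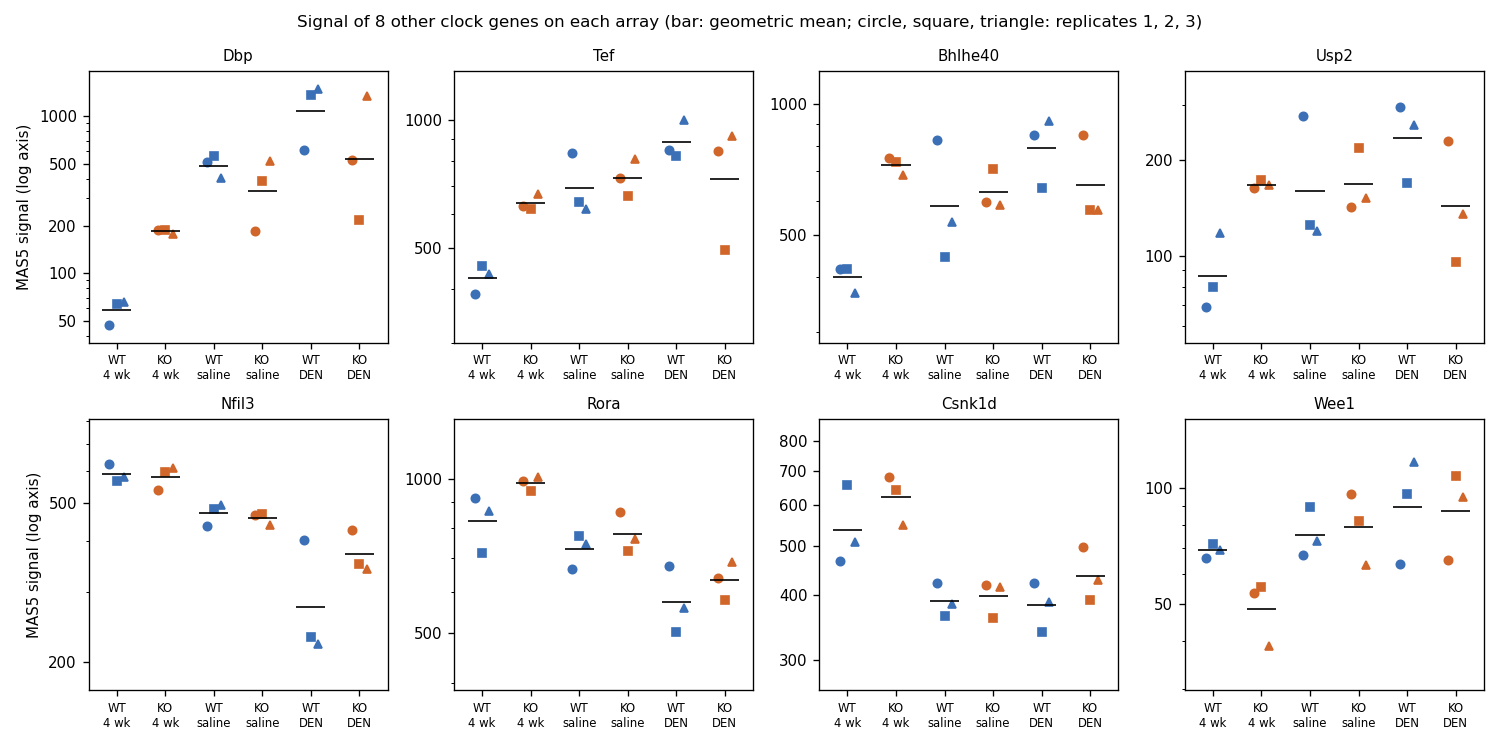
Signal of 8 other clock genes on each of the 18 arrays (log axis), by group, with 1 symbol per replicate and a bar at the geometric mean; blue is wild type and orange is knockout. Dbp climbs in wild type from at most 65.4 at 4 weeks to at least 610.2 after DEN, and Nfil3 lies lowest in the wild-type DEN group.

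In the other comparisons few of the 16 were called. From saline to DEN, Nfil3 alone fell and 0 rose in wild type, by 0.74 (adjusted p 0.00338; -0.693 with adjusted p 0.014 after quantile normalization), where 6.99% of all genes were called. In the knockout limma called 0 of 16 (1 at an unadjusted p under 0.05, Rora at -0.29 with adjusted p 0.0854), where 15.2% of all genes were called. An unadjusted p under 0.05 was reached there by 3631 of 12896 genes. From 4 weeks to saline in wild type, where 9.79% of all genes were called, Tef rose by 0.68 (adjusted p 0.00929; 0.636 with quantile normalization) and Csnk1d fell by 0.45 (adjusted p 0.0303; -0.494), and in the knockout, where 11.7% were called, Csnk1d fell by 0.62 (adjusted p 0.00254; -0.638). In fits without 1 array the wild-type call of Csnk1d was lost in 4 of 6, up to an adjusted p of 0.167, that of Tef in 1 of 6, and the knockout call of Csnk1d in 0 of 6. Bhlhe40 was the 1 of these 16 genes with a called genotype difference, at 4 weeks, where 3.08% of 12896 genes were called. Its signals at 4 weeks were 417, 417 and 368 in wild type and 752, 738 and 688 in the knockout, a rise of 0.83 (SE 0.18, adjusted p 0.0133) that ranged from 0.776 to 0.872 over the 6 fits without 1 array and was lost in 3. With DEN it read 851, 643 and 916 in wild type and 848, 570.5 and 570.2 in the knockout, a difference of -0.28 (adjusted p 0.671).

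Among 12870 genes outside both lists, those whose signals ran most like Arntl over the 18 arrays were Btg1 (r 0.925, and 0.961 over the 12 arrays without saline), Pnrc1 (0.877), Tubb2a (0.874), Nedd4l (0.855) and Crebbp (0.837). For Nr1d1 they were Helq (0.797, and 0.81 without saline), Sertad4 (0.792), Tipin (0.784), Mboat7 (0.784) and Pms2 (0.772). These values hold differences between groups as well as between arrays of a group, all come from the same 18 arrays, and are given as a description.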

How the data were processed

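Liver RNA was measured on 18 arrays, whose number limits the precision. The deposited values are MAS5 intensity signals per the submitters' processing notes, with no version given; recomputed without the outer 2 percent, each array's mean was 150. Of 45101 probe sets, 64 controls were set aside; of the other 45037, 34945 carry 1 gene symbol, 932 several and 9160 none. After adding 16 and taking log2, probe sets whose mean reached the 40th percentile entered the fit, made in R 4.3.3 by limma 3.58.1 (lmFit, eBayes with trend) with 1 coefficient per group, 12 residual and 9.19 prior degrees of freedom, two-sided. The 12 contrasts compare genotypes, conditions and their differences. Replicate numbers come from the titles; in no comparison did every same-numbered pair of arrays correlate above 0.1, so the numbers are not taken to pair them. All members, the called genes of the list of other clock genes (at most 6 per contrast by size), Hmgn1 and the 5 genes most like Arntl and Nr1d1 are named; members and lists were chosen with earlier results of these data known. Alternatives changed scaling, filter, number added, variance model, weights, arrays and probe sets.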

Additional observations from a re-analysis of the deposited data

Results flagged for a closer look

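Bhlhe40, a repressor at E-boxes, was called for a change of the genotype difference itself between DEN and 4 weeks. It was the 1 call among the 16 other clock genes, beside 0 of 10 members and 1.08% of 12896 genes. Its genotype difference was 0.83 at 4 weeks and -0.28 with DEN. The change was -1.114 on the log2 scale (SE 0.25, limma adjusted p 0.0381), or -1.1 (adjusted p 0.044) with quantile normalization. In fits without 1 array it ranged from -1.301 to -1.014, and in 9 of 12 the adjusted p passed 0.05, up to 0.0978. Dbp had a larger change without a call, at -2.341 with quantile normalization (limma adjusted p 0.0692).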

How the results depend on the processing

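The alternatives changed 1 choice at a time. Of 17 called member differences with 334 alternative values, 227 stayed called, 107 lost the call and 0 changed sign; of 103 uncalled ones with 2176 values, 19 gained a call and 108 changed sign. At 4 weeks the count of members that differed between genotypes went from 2 to 1 with quantile normalization, cyclic loess, centred medians, no filter, no intensity trend, the replicate block or without the saline arrays, to 0 without the 4-week arrays of highest Gapdh ratio, to 3 with array weights, and to 1 to 2 without 1 array. For DEN against saline in wild type, the count of 1 became 3 with centred medians, 2 with a filter at the 60th percentile, array weights or without those Gapdh arrays, and 0 to 2 without 1 array. In the knockout the count of 4 became 1 with quantile normalization, cyclic loess, centred medians, no trend or only the compared groups. It became 2 with no filter, and 3 with 1 added, array weights, the replicate block or without those Gapdh arrays. With any tested probe set it was 5, and without 1 array it was 1 to 3. For DEN against 4 weeks in the knockout, 6 became 5 with quantile normalization, 1 added or the replicate block, 4 with cyclic loess, centred medians, array weights or only the compared groups, 3 with no filter, 1 with no trend, 2 without the saline arrays or those Gapdh arrays, and 2 to 3 without 1 array; in wild type 3 became 2 with 1 added, no filter, no trend, without the saline arrays or only the compared groups, 4 with any tested probe set, and 2 to 4 without 1 array. For saline against 4 weeks, 1 became 2 in wild type with any tested probe set or array weights and 1 to 2 without 1 array, and 0 became 1 in the knockout with cyclic loess or array weights and 2 with only the compared groups. The difference of the genotype differences, DEN less 4 weeks, went from 0 to 0 to 1 members without 1 array, and co-variation with Arntl from 0 to 1 with quantile normalization or cyclic loess. The cause of these changes was not tested. With the replicate block, Cry1 between genotypes at 4 weeks (adjusted p 0.06) and Npas2 in the knockout, DEN against saline (0.0557) and against 4 weeks (0.0553), lost their calls and the other called member differences did not. Centring the medians moved the median of all probe sets from 0.04 to -0.087 for genotype with saline, from -0.093 to 0.015 for DEN against saline in the knockout and from -0.054 to 0.131 for the difference of genotype differences between DEN and saline. Signals of Npas2, Per3 and Nr1d1 near the number added limit what can be said of their size.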
